A study of Homo sapiens with 10 samples.

Results

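The 9 genes described here encode parts of the tight junction: TJP1 and TJP3, which encode the scaffolds ZO-1 and ZO-3, the scaffold cingulin (CGN), occludin (OCLN), tricellulin (MARVELD2), junctional adhesion molecule A (F11R), and the claudins CLDN1, CLDN11 and CLDN12. They were taken by gene symbol from a table of 62700 genes, and all 9 were found, each with 1 row. They were followed in 5 parental and 5 CCAR1 knockout libraries of RPE p53-/- cells, a human line of retinal pigment epithelial origin that lacks p53, grown as cultures in the same serum-containing medium. Both genotypes therefore lack p53, and by their labels they differ in the CCAR1 knockout. CCAR1 is a cell cycle and apoptosis regulator that the series title calls a splicing factor. The labels give neither the number of knockout clones nor whether replicates were separate cultures, so the p-values capture only how these samples vary, and that variation may be technical.

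Tight junctions are the belts near the top of epithelial and endothelial cells that limit what passes between the cells. Claudins are small membrane proteins that polymerise into the strands and set which ions cross, occludin and tricellulin are MARVEL-domain proteins of the strands and of the corners where cells meet, and JAM-A is an immunoglobulin-like adhesion molecule. ZO proteins and cingulin lie beneath the membrane and tie these proteins to actin. In the eye, the tight junctions of the retinal pigment epithelium form the outer blood-retinal barrier.

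Libraries fell into 6 shallow ones with totals of 52.6 to 65.2 M counts (M stands for 1000000; replicates 1 to 3 of each genotype) and 4 deep ones with 320.6 to 385.4 M (replicates 4 and 5). Levels are in CPM, counts scaled to a TMM-adjusted library of 1 M, and each mean ± SD has n = 5 and includes the gap between depths. The shallow libraries also held transcripts of other tissues. Skeletal muscle markers (11 of 12 listed were in the table) summed to 282 to 602 CPM there and to 9.74 to 23.6 CPM in the deep libraries, and the 10 simple epithelium markers summed to 7.63 to 17.8 and 1.07 to 1.67 CPM. TNNT1 made up most of the muscle sum in the deep libraries, at 9.44 and 9.49 CPM in parental and 23.2 and 23.1 CPM in knockout replicates. ACTA1 was at 0.0848 to 0.159 CPM there. The knocked out gene itself, CCAR1, averaged 147.7 ± 23.6 CPM in parental and 105.5 ± 18.5 CPM in knockout libraries (edgeR adjusted p = 0.0201, log2 fold change -0.48 with a standard error of 0.14). It did not pass when parental replicate 5 was left out (edgeR adjusted p = 0.0504 at a log2 fold change of -0.42), when only library size was used for scaling (0.0525 at -0.42) or when chromosome medians were subtracted (0.121 at -0.31). It passed with the replicate block (edgeR adjusted p = 2.16e-06 at -0.49), in the shallow libraries alone (1.19e-06 at -0.51) and in the deep ones alone (3.97e-11 at -0.48). Of the 14 markers of pigment epithelium, MITF was at 30.9 to 47.1 CPM. OTX2 was at 10.1 to 11.8 CPM in parental and 14.9 to 18.3 CPM in knockout libraries (edgeR adjusted p = 0.000194). BEST1 rose from 1.43 ± 0.166 to 2.16 ± 0.419 CPM and LRAT from 0.399 ± 0.07 to 0.619 ± 0.152 CPM (edgeR adjusted p = 0.0124 and 0.0302). MITF, PMEL, SERPINF1 and TTR did not pass. TYR, TYRP1, DCT, TRPM1 and RLBP1 were at 0.248 CPM or less in every library. RPE65, the isomerase that defines the visual cycle, had at most 12 counts in any library, and CLDN19, a claudin typical of native human pigment epithelium, at most 7.

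Promoter windows from RefSeq (GRCh38.p14), each 300 bases long with 250 bases before an annotated start and 50 after, were found for 8 of the 9 genes. Those of the 3 genes that fell, OCLN, CLDN1 and CLDN12, and that of MARVELD2, the neighbour of OCLN, are given 5′ to 3′ on the gene's strand to show what the fallen genes do and do not have in common. Capitals mark CAGGTG or its reverse complement CACCTG, the E-box form that repressors of the Snail and ZEB families can bind. The 2 OCLN windows belong to alternative starts and overlap at their ends.
OCLN, first start, chr5:69492297-69492596, plus strand: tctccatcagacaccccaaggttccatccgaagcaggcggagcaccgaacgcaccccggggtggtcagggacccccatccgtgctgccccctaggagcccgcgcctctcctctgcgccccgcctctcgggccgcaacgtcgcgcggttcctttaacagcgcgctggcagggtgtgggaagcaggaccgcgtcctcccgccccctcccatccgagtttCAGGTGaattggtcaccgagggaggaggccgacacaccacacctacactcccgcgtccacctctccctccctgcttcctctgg
OCLN, second start, chr5:69492540-69492839, plus strand: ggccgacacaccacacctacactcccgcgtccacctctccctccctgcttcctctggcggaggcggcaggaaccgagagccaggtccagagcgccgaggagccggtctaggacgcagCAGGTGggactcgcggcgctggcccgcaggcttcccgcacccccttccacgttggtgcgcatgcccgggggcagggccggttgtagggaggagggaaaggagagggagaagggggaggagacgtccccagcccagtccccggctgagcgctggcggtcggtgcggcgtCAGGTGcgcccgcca
CLDN1, chr3:190322397-190322696, minus strand: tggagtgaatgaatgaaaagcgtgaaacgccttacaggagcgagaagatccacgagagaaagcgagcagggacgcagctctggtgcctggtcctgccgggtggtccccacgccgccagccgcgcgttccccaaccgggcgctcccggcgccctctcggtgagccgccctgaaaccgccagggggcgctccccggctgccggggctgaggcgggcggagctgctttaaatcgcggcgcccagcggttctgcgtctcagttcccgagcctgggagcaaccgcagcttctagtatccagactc
CLDN12, chr7:90403211-90403510, plus strand: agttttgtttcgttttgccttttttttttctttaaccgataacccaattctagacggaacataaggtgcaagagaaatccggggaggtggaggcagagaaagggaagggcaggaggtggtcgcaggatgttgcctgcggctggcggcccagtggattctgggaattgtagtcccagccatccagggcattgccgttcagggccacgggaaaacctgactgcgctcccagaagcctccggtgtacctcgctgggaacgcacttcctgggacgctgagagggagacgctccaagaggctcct
MARVELD2, chr5:69414866-69415165, plus strand: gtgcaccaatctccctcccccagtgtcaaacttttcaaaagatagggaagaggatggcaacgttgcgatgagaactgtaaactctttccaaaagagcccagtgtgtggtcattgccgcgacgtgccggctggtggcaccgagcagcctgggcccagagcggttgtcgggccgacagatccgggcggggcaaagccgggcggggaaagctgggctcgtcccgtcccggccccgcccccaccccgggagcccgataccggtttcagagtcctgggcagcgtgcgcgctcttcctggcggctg

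The OCLN windows held CAGGTG at bases -33 to -28 of the first start and at -133 to -128 and 36 to 41 of the second, counted from 1 at the start. None of the windows of CLDN1, CLDN12 or MARVELD2 held it on either strand. Among the 14 windows of the 8 genes, 4 held it: both of OCLN, 1 of 4 for TJP1 and 1 of 2 for TJP3. Of all 35116 RefSeq windows of this length, 20.6% held it. CATTCC, the core bound by TEAD factors, or its reverse complement GGAATG was in 0 of the 14 windows and in 14.0% of all windows, so no overlap between both motifs arose. The OCLN windows were 68% and 72% G and C, those of CLDN1, MARVELD2 and CLDN12 67%, 64.7% and 56%, against a median of 58.7% over all windows. These matches describe letters in short windows and do not show binding.

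Per kilobase of merged exons, TJP1 and CLDN12 had the highest levels of the 9 genes in both genotypes. In parental libraries TJP1 was at 8.27 ± 1.66 and CLDN12 at 7.85 ± 1.44 CPM per kb, which did not differ beyond their spread. CLDN1 followed at 1.77 ± 0.131 and OCLN at 0.895 ± 0.178 CPM per kb. F11R (0.303 ± 0.0531), CGN (0.227 ± 0.0332), CLDN11 (0.205 ± 0.174) and MARVELD2 (0.119 ± 0.0152) came next, and the ± 1 SD ranges of neighbours among these 4 met. TJP3 was last at 0.0149 ± 0.00839 CPM per kb. In knockout libraries the order was TJP1 (5.86 ± 1.55), CLDN12 (4.03 ± 0.859), CLDN1 (0.882 ± 0.243), OCLN (0.328 ± 0.0797), CGN (0.276 ± 0.0212), F11R (0.259 ± 0.0407), CLDN11 (0.199 ± 0.0350), MARVELD2 (0.137 ± 0.0257) and TJP3 (0.0095 ± 0.00523). OCLN, which stood apart from CGN and F11R in parental libraries, had ± 1 SD ranges that met theirs in the knockout.

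Knockout and parental libraries were compared to ask which genes differ between them across the genome. As the number of knockout clones is not given, CCAR1 loss and differences between clones cannot be told apart. OCLN, CLDN1 and CLDN12 fell, to 36.7%, 49.7% and 51.3% of their parental means. In such bulk samples, fewer cells with a transcript and less of it per cell cannot be told apart. TJP1 was at 70.8% and did not pass over all libraries, though it did in several other fits, and CGN, MARVELD2, F11R and CLDN11 did not pass. TJP3 was too low to be tested. So 3 of 8 tested genes fell and 0 rose in edgeR's quasi-likelihood test adjusted over all 18979 genes tested, where 36.6% of all genes passed, 16.9% as lower and 19.7% as higher. At an unadjusted p under 0.05, 4 were lower and 1 higher. The share of all genes under that limit was not counted, but it is at least the 36.6% that passed after adjustment. DESeq2 called 4 lower and 0 higher, where it called 7836 of all 18979 genes. With limma-voom 3 were lower and 1 higher, where 7238 of all 18979 genes were called. The share of the 8 called in edgeR over all libraries, 37.5%, was near the 36.6% of all genes. With chromosome medians subtracted the same 3 genes fell and 0 rose, where 33.5% of all genes passed. The median log2 fold change of the 8 was -0.36, with 0.02 over all genes tested. With the replicate number as a block TJP1 fell as well and CGN rose, so 5 of 8 were called, against 61.2% of all genes. With depth as a term 5 of 8 fell, F11R being the addition, and CGN rose (64% of all genes). In the shallow libraries alone 4 of 8 fell and CLDN11 rose (52.7% of all genes). In the deep libraries alone, where all 9 could be fitted, 4 fell and CGN and MARVELD2 rose (57% of all genes). The ranges of the 5 knockout and 5 parental libraries were apart for the same 3 genes, all with the knockout below and 0 above, against 30.6% of all genes tested (14.6% with the knockout below and 16% above). Within the shallow and within the deep libraries, they were apart in the same direction for 5 genes, the 3 that fell and TJP1 and F11R, against 53.9% of all genes.

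**Figure D1:**
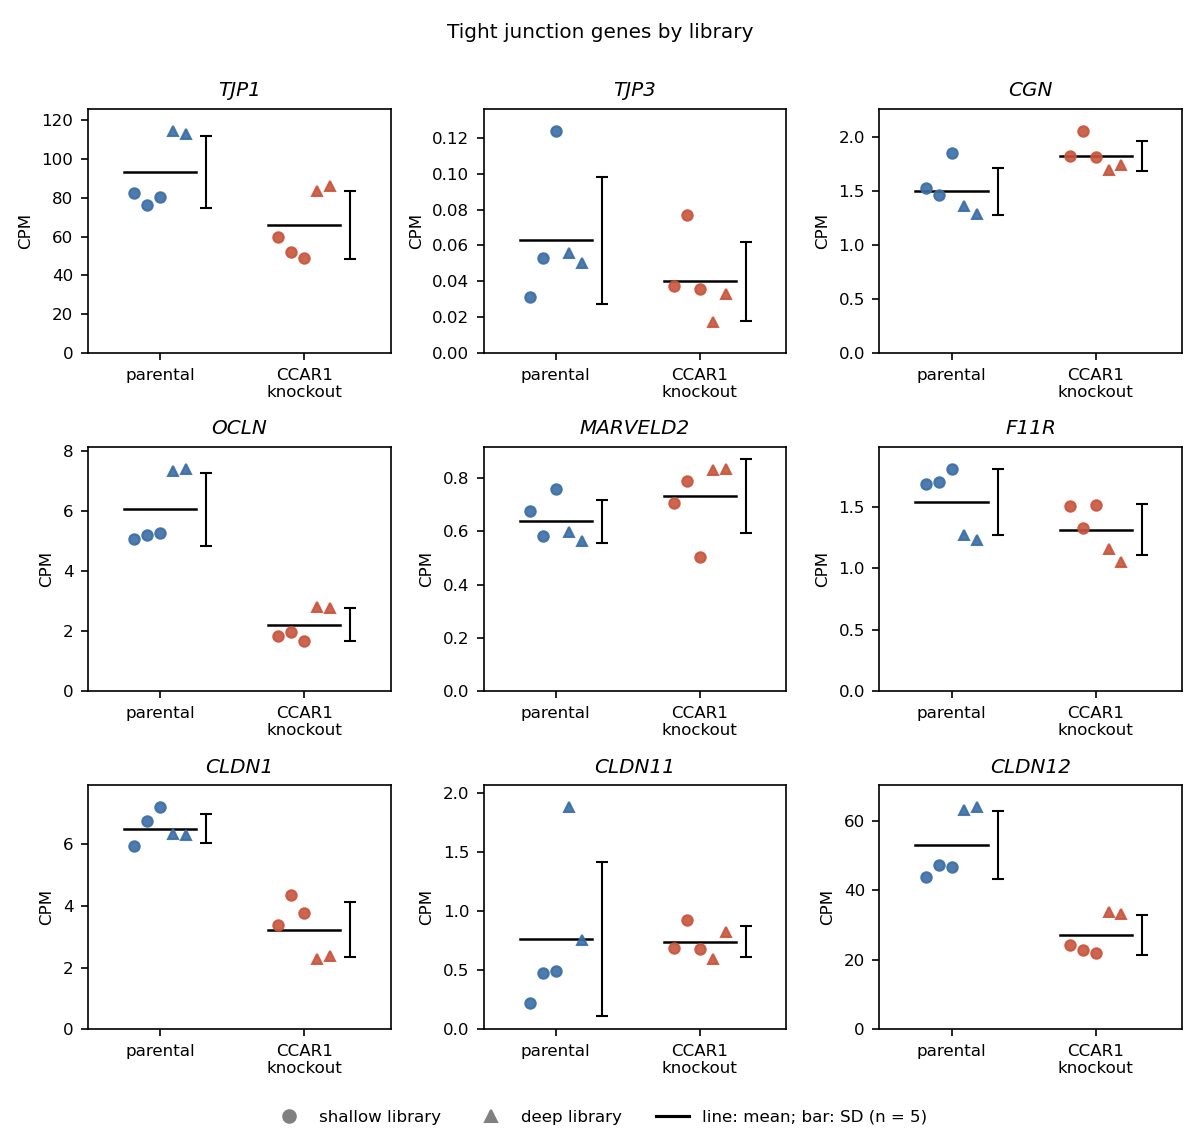
CPM of the 9 tight junction genes (vertical axis from 0, one scale per gene) in the 5 parental and 5 CCAR1 knockout libraries, with circles for shallow and triangles for deep libraries, a line at the mean and a bar of 1 SD. The knockout points of OCLN, CLDN1 and CLDN12 lie below every parental point, while those of TJP1 do so only within a depth.

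Occludin, a membrane protein of the strands that also helps to organise junctional actin, showed the largest fall of the 8 tested genes. OCLN (ENSG00000197822.12, chromosome 5, 69492292 to 69558104, plus strand, hg38) was at 5.05, 5.21, 5.25, 7.34 and 7.39 CPM in parental replicates 1 to 5. In knockout replicates 1 to 5 it was at 1.84, 1.98, 1.67, 2.82 and 2.78 CPM. All knockout values lay below all parental ones, and in both genotypes the deep libraries were the higher ones. The log2 fold change was -1.44 (standard error 0.19, edgeR adjusted p = 0.00019). Exact permutation (two-sided, on log2 CPM) gave p = 0.00794, the smallest that its 252 arrangements can give. The shallow libraries alone had a log2 fold change of -1.51 and the deep ones alone -1.42. The unprocessed pseudogene OCLNP1, a partial copy of OCLN to which its reads could be assigned, was at 0.0937 ± 0.0608 and 0.0939 ± 0.0599 CPM, so it holds few of the counts.

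Tricellulin, the MARVEL protein of tricellular corners, lies next to occludin and did not pass. MARVELD2 (ENSG00000152939.17, chromosome 5, 69415065 to 69444330, plus strand) ends 48.0 kb before OCLN begins. It ranged from 0.565 to 0.760 CPM in parental and from 0.503 to 0.833 CPM in knockout libraries, and the ranges overlapped. Its log2 fold change was 0.21 (standard error 0.17, edgeR adjusted p = 0.365). In the deep libraries, where it had 180 to 285 counts, both knockout values of 0.831 and 0.833 CPM lay above the parental 0.597 and 0.565 CPM (log2 fold change 0.50, edgeR adjusted p = 0.00271). In the shallow libraries, with 28 to 43 counts, the log2 fold change was -0.03 (standard error 0.26), and the genotype by depth term did not pass (edgeR adjusted p = 0.343). Per kilobase, the ratio of OCLN to MARVELD2 was 5.48 to 10.4 in parental and 1.99 to 2.69 in knockout libraries, so the ranges were apart.

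Claudin-1, a sealing claudin without which the skin barrier fails, fell to about the same share as claudin-12. CLDN1 (ENSG00000163347.6, chromosome 3, 190305701 to 190322475, minus strand) was at 5.94, 6.75, 7.18, 6.32 and 6.29 CPM in parental replicates 1 to 5. The knockout replicates had 3.39, 4.35, 3.75, 2.27 and 2.39 CPM, all below the parental ones, with the deep knockout libraries lowest. Its log2 fold change was -1.02 (standard error 0.18, edgeR adjusted p = 0.00122, exact two-sided permutation p = 0.00794). It was -0.80 (standard error 0.12) among shallow and -1.46 (standard error 0.059) among deep libraries. The term for that difference, -0.65 with a standard error of 0.15, did not pass over all genes (edgeR adjusted p = 0.076). Liver markers, from a tissue that itself has CLDN1, summed to 37.1 to 107 CPM in the shallow and 2.05 to 3.30 CPM in the deep libraries, with 11 of 11 in the table. In the deep libraries TF, at 1.30 to 1.71 CPM, and SERPINA1, at 0.493 to 0.56 CPM in parental and 1.34 to 1.37 CPM in knockout replicates, made up most of that sum, and ALB was at 0.00892 to 0.0397 CPM. Their part in the difference between depths was not tested.

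Claudin-12, an atypical claudin linked to calcium passage, fell in parallel in the shallow and the deep libraries. CLDN12 (ENSG00000157224.16, chromosome 7, 90383721 to 90513402, plus strand) was at 43.8, 47.1, 46.8, 63.2 and 63.8 CPM in parental replicates 1 to 5. In the knockout it was at 24.2, 22.8, 21.9, 33.6 and 33.3 CPM, below each parental value. The log2 fold change was -0.96 (standard error 0.17, edgeR adjusted p = 0.00111, exact two-sided permutation p = 0.00794), with -1.01 among shallow and -0.94 among deep libraries. Protein-coding genes of chromosome 7 had a median log2 fold change of -0.30, and with that median subtracted CLDN12 was at -0.66 (edgeR adjusted p = 0.0104).

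Claudin-11, known from myelin and from the Sertoli cells of the testis, did not keep 1 direction. CLDN11 (ENSG00000013297.12, chromosome 3, 170418865 to 170454733, plus strand) was at 0.220, 0.477, 0.495, 1.88 and 0.760 CPM in parental replicates 1 to 5. In the knockout it was at 0.689, 0.923, 0.683, 0.595 and 0.827 CPM. Parental replicate 4 held 711 counts and stood above all other libraries, and replicate 5, at a similar depth, held 242. Over all libraries the log2 fold change was -0.08 (standard error 0.47, edgeR adjusted p = 0.925), and without parental replicate 4 it was 0.58 (edgeR adjusted p = 0.199). In the shallow libraries each knockout value was above each parental one (log2 fold change 0.94, edgeR adjusted p = 0.023, with 14 to 48 counts a library), while among deep libraries it was -0.92 (standard error 0.67, edgeR adjusted p = 0.379). The term for that difference was -1.86 with a standard error of 0.61 and did not pass (edgeR adjusted p = 0.17). The 6 myelin markers, all of them in the table and with CNP making up most of their sum, came to 144 to 162 CPM in parental and 109 to 133 CPM in knockout libraries. MBP was at 7.23 to 8.83 CPM in parental libraries, with the highest value in replicate 4, and at 3.45 to 3.90 CPM in knockout libraries, and MOG was at 0 in 4 libraries, parental replicate 4 among them. The part of myelin transcripts in the CLDN11 values was not tested. An annotated gene that shares 18.3% of the exon bases of CLDN11 was at 0 to 0.106 CPM.

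**Figure D2:**
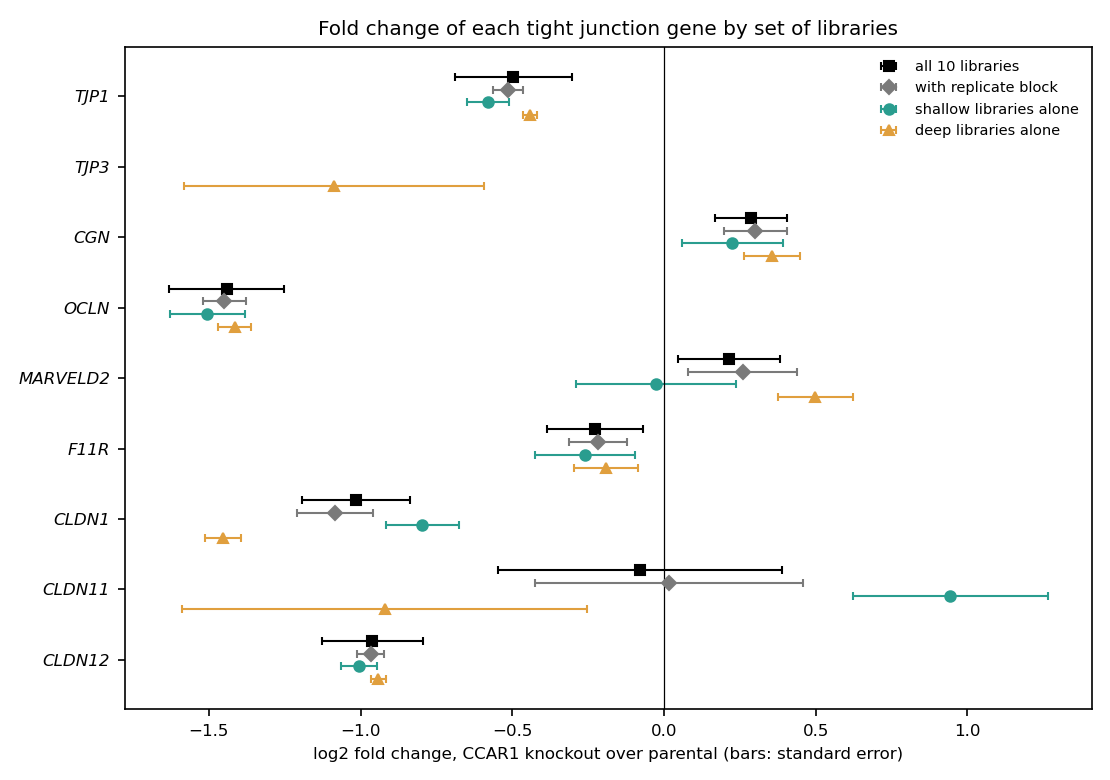
Log2 fold change of knockout over parental for each of the 9 genes (horizontal axis, bars of 1 standard error), over all 10 libraries, with the replicate block, in the shallow libraries alone and in the deep libraries alone. The 4 estimates stay together for OCLN (-1.51 to -1.42) and CLDN12 (-1.01 to -0.94) and part for CLDN11 (0.94 in shallow, -0.92 in deep libraries). TJP3 has a value in the deep libraries only.

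The claudin makeup was described per kilobase over all 24 claudin genes listed, of which 9 could be tested. The summed claudin level was 12.6 to 14.9 CPM per kb in parental and 8.07 to 8.71 CPM per kb in knockout libraries, so the ranges were apart. CLDN12 made up 56.5% ± 6.50 of that sum in parental and 47.5% ± 8.96 in knockout libraries, and CLDN1 12.9% ± 1.27 and 10.5% ± 3.19. Over all libraries the ranges of both shares overlapped. Within a depth, the CLDN12 share was lower in the knockout. It was 50.5% to 53.2% against 37.9% to 43.7% in shallow and 62.8% to 64.2% against 56.9% to 57.2% in deep libraries. The CLDN1 share overlapped in the shallow libraries and was 11.6% to 11.7% against 7.12% to 7.51% in the deep ones. No test was made of the shares. CLDN15, a pore-forming claudin of the intestine encoded on chromosome 7, was the second in both genotypes, with 21.0% ± 4.10 and 23.7% ± 4.68. It fell from 8.32 ± 1.12 to 5.80 ± 1.16 CPM (edgeR adjusted p = 0.0164), a call that was lost with the chromosome median subtracted (log2 fold change -0.52 to -0.22, edgeR adjusted p = 0.281). CLDN4, a sealing claudin on the same chromosome, averaged 2.17 ± 0.626 and 2.73 ± 0.485 CPM and did not pass (edgeR adjusted p = 0.253), but passed as higher with the replicate block (0.0109) and with the chromosome median subtracted (0.0406). Its share was 3.39% ± 1.13 in parental and 6.91% ± 1.45 in knockout libraries, whose ranges of 2.16% to 4.37% and 5.19% to 8.92% were apart. CLDN11 made up 0.469% to 3.38% and 1.83% to 3.07%.

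**Figure D3:**
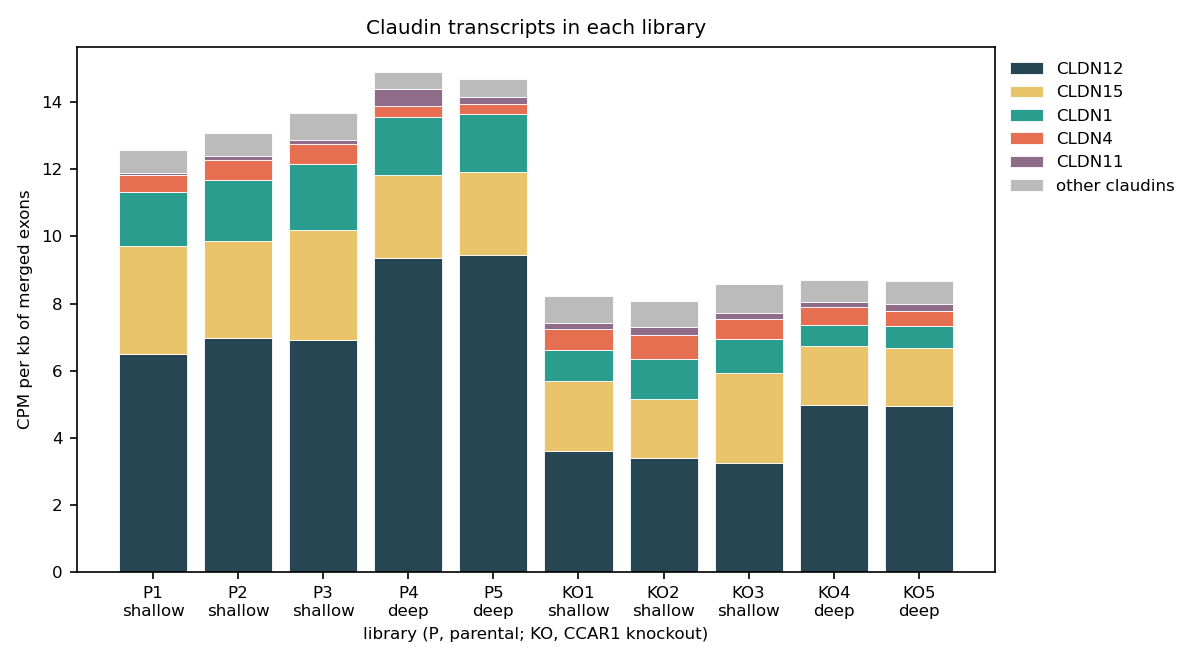
Level of claudin transcripts in each of the 10 libraries, in CPM per kilobase of merged exons (stacked bars from 0), divided among CLDN12, CLDN15, CLDN1, CLDN4, CLDN11 and the other claudins. The knockout bars end at 8.07 to 8.71 and the parental bars at 12.6 to 14.9, and CLDN12 is the largest part of each bar.

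Among the scaffolds, ZO-1, the protein that seeds strand assembly by binding claudin tails, was lower in every knockout library than in the parental libraries of its depth. TJP1 (ENSG00000104067.17, chromosome 15, 29699367 to 29968865, minus strand) was at 82.2, 76.4, 80.4, 114 and 113 CPM in parental replicates 1 to 5. In the knockout it was at 59.8, 52.2, 48.7, 83.5 and 85.8 CPM. The deep knockout libraries thus lay above the shallow parental ones, and the pooled ranges overlapped. Over all libraries the log2 fold change was -0.50 (standard error 0.19, edgeR adjusted p = 0.0685, exact two-sided permutation p = 0.0794). With the replicate block it was -0.51 (standard error 0.049, edgeR adjusted p = 1.18e-05), and it passed in the shallow libraries alone (-0.58, edgeR adjusted p = 8.19e-06) and in the deep ones alone (-0.44, 1.76e-10). It also passed in DESeq2 (adjusted p = 0.0228), and in edgeR without knockout replicate 4 (adjusted p = 0.0379) or 5 (0.0317).

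Cingulin, a rod-like linker from ZO proteins to actin, did not pass over all libraries. CGN (ENSG00000143375.15, chromosome 1, 151510510 to 151538692, plus strand) was at 1.53, 1.47, 1.86, 1.36 and 1.29 CPM in parental and at 1.82, 2.06, 1.81, 1.69 and 1.75 CPM in knockout replicates 1 to 5. Parental replicate 3, at 1.86 CPM, stood above 4 of the knockout libraries. The log2 fold change was 0.29 (standard error 0.12, edgeR adjusted p = 0.0844, exact two-sided permutation p = 0.0397). It passed with the replicate block (0.30, edgeR adjusted p = 0.0295), in the deep libraries alone (0.36, 0.0038), with library size only (0.34, 0.0398) and without parental replicate 3 (0.37, 0.0258), as well as in limma-voom (0.32, adjusted p = 0.0384). The simple epithelium list, whose cells have cingulin, with all 10 genes in the table, summed to 1.07 to 1.18 CPM in deep parental and 1.61 to 1.67 CPM in deep knockout libraries, and to 7.63 to 17.8 CPM in the shallow ones. In the deep libraries ESRP2 made up most of that sum, at 0.695 and 0.728 CPM in parental and 0.989 and 1.04 CPM in knockout replicates 4 and 5. ST14 was at 0.0608 and 0.0596 CPM there in parental and 0.137 and 0.199 CPM in knockout replicates, and ESRP1 at 0.00264 and 0.00314 against 0.0379 and 0.0327 CPM. CDH1 was at 0.0846 and 0.0691 against 0.105 and 0.0862 CPM, and ELF3 at 0.119 and 0.116 against 0.125 and 0.143 CPM. VIL1 was at 0.0132 and 0.00314 against 0.0175 and 0.0149 CPM. The genotypes overlapped for EPCAM (0.0423 and 0.0157 against 0.0583 and 0.0297 CPM) and KRT19 (0.0846 and 0.0345 against 0.0321 and 0.0476 CPM). They also overlapped for PRSS8 (0.0819 and 0.0345 against 0.0963 and 0.0773 CPM) and GRHL2 (0 and 0.00628 against 0.00875 and 0.00297 CPM). The part of such epithelial transcripts in the CGN values was not tested. ZO-3, restricted to epithelia in most tissues, was near the limit of detection: TJP3 (ENSG00000105289.15, chromosome 19, 3708109 to 3750813, plus strand) had 2 to 7 counts in each shallow and 6 to 21 in each deep library. In the deep libraries alone, where it could be fitted, its log2 fold change was -1.09 (standard error 0.50, edgeR adjusted p = 0.0751).

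Junctional adhesion molecule A, which recruits polarity proteins to new contacts, did not pass over all libraries. F11R (ENSG00000158769.18, chromosome 1, 160995211 to 161021348, minus strand) ranged from 1.22 to 1.80 CPM in parental and from 1.05 to 1.51 CPM in knockout libraries. The 3 shallow parental libraries were the highest, and within each depth the knockout values were below the parental ones. The log2 fold change was -0.23 (standard error 0.16, edgeR adjusted p = 0.306), and with the replicate block -0.22 (0.0756). An annotated readthrough-type gene on the same strand shares 36.6% of the exon bases of F11R and was at 0.108 to 0.777 CPM, so the division of reads between them is uncertain. Summed with it, F11R had a mean of 1.89 ± 0.484 CPM in the parental and of 1.56 ± 0.241 CPM in the knockout group.

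In a test of whether the genotype effect differed between shallow and deep libraries, 0 of the 8 genes passed in edgeR, where 0.601% of all genes did. By the unadjusted p there were 2 under 0.05, CLDN1 and CLDN11. The share of all genes under that limit was not counted, so these 2 are given as a description only.

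Among 60 other tight junction genes listed, 41 could be tested, and 12 fell, 6 rose and 23 did not pass, so 43.9% were called against 36.6% of all genes. The median log2 fold change of the 41 was -0.12, with 0.02 over all genes. Ranges of the knockout and parental libraries were apart for 10 of them with the knockout below and for 4 with it above, against 14.6% and 16% of all genes. With the replicate block 17 fell and 8 rose, or 61% of the list, near the 61.2% of all genes called in that fit. The list was chosen with earlier results of these data known, so these counts describe it and do not test it.

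CXADR, the coxsackie and adenovirus receptor and a junctional immunoglobulin-like protein related to JAM-A, fell from 6.92 ± 1.59 to 1.24 ± 0.257 CPM, or 5.54-fold (edgeR adjusted p = 5.66e-06, log2 fold change -2.47 with a standard error of 0.20). AMOT, angiomotin, which links junctions to polarity proteins and to YAP, fell 4.19-fold from 42.7 ± 5.60 to 10.2 ± 2.23 CPM (edgeR adjusted p = 4.02e-06). Its relative AMOTL2 fell 1.81-fold, from 225.0 ± 18.4 to 124.0 ± 7.36 CPM (7.21e-06 in the same test). PARD6G, a PAR6 polarity protein, rose 2.64-fold from 2.93 ± 0.0937 to 7.73 ± 0.943 CPM (edgeR adjusted p = 1.7e-06). RAB13, a small GTPase that carries occludin and claudins to the surface, rose from 66.9 ± 4.52 to 121.8 ± 17.98 CPM, and ARHGEF2, an exchange factor that cingulin holds inactive, from 54.0 ± 3.86 to 73.4 ± 4.14 CPM (edgeR adjusted p = 9.79e-05 and 0.000517). Ranges of parental and knockout libraries were apart for these 6 genes, and for 30.6% of all genes tested. The 6 were picked by adjusted p from the same libraries, so their ranges are no added evidence.

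By role, 4 of 10 scaffolds fell, and the others did not pass. Of 9 tested polarity genes 2 fell and 1 rose, and of 5 tested adhesion molecules 1 fell and 2 rose. Of 6 other claudins tested, CLDN15 fell and 1, CLDN14, rose, from 0.156 ± 0.0459 to 0.318 ± 0.0466 CPM (edgeR adjusted p = 0.00633). CLDN14 is named here because it was the only riser among them. The shares called were 40% of scaffolds, 33.3% of polarity genes, 60% of adhesion molecules and 33.3% of these claudins. Over all genes tested the share was 36.6%, with 16.9% lower and 19.7% higher. The 19 untested genes were too low for the filter, and 5 of them, all claudins, had 0 counts in every library.

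**Figure D4:**
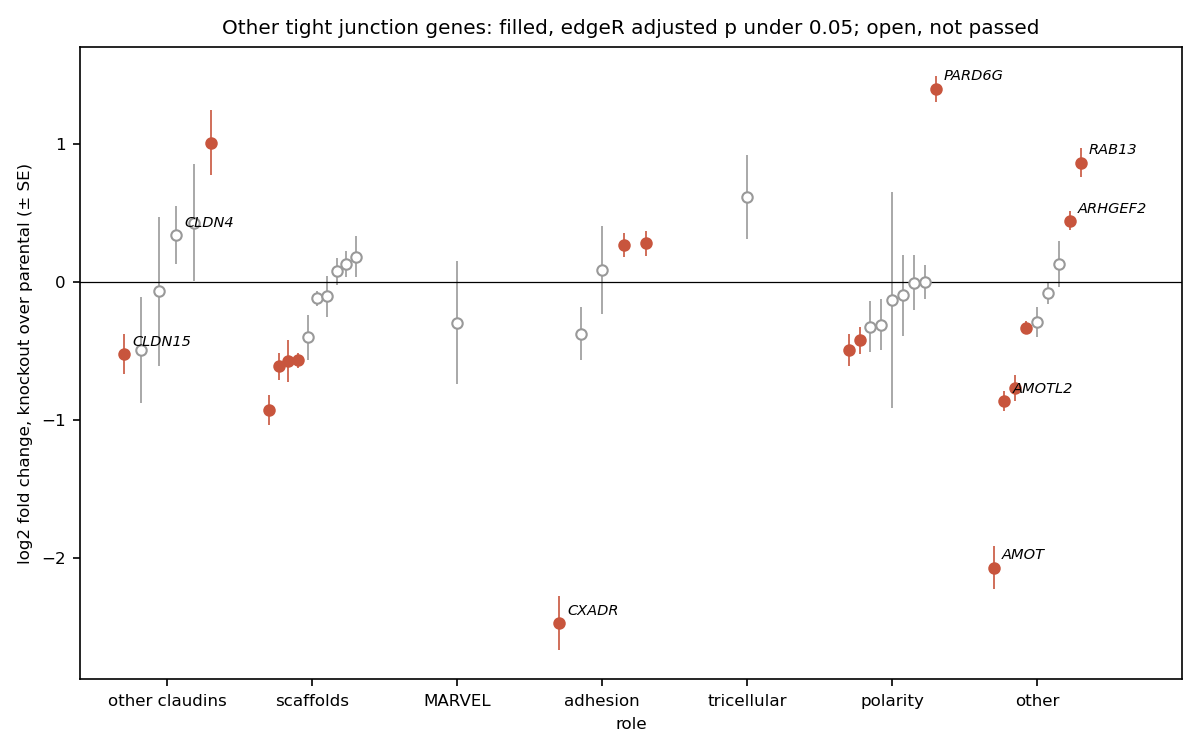
Log2 fold change of knockout over parental (vertical axis, bars of 1 standard error) for the 41 other tight junction genes tested, grouped by role. Filled points passed edgeR's test: 12 lie below 0, with CXADR (-2.47) and AMOT (-2.07) lowest, and 6 lie above, with PARD6G (1.40) highest.

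Genes next to the fallen members were compared with them. Over all genes tested, 16.9% fell and 19.7% rose. Protein-coding genes of chromosome 7, which holds CLDN12, had a median log2 fold change of -0.30. Within 1 Mb of OCLN 13 protein-coding genes were tested, with log2 fold changes of -0.37 to 0.50 and a median of -0.01, and 2 fell and 1 rose. OCLN at -1.44 lay below all of them. Around CLDN12 6 were tested, and 4 fell, with a median of -0.49 and a range of -0.93 to -0.17. The nearest on either side were among them: CDK14, a cyclin-dependent kinase of Wnt signalling, fell from 30.7 ± 5.95 to 16.1 ± 2.55 CPM (edgeR adjusted p = 0.000704, log2 fold change -0.93 with a standard error of 0.15), and GTPBP10, a mitochondrial GTPase, from 28.4 ± 6.62 to 18.7 ± 4.15 CPM (-0.60, standard error 0.19, edgeR adjusted p = 0.0285). Their exons share 201 and 347 bases with those of CLDN12, or 2.98% and 5.15% of its exon length, so part of their counts may be exchanged. Summed with CDK14, CLDN12 was at 69.3 to 101.0 CPM in parental and 35.6 to 52.8 CPM in knockout libraries. Summed with GTPBP10, it was at 65.2 to 99.0 and 36.3 to 56.7 CPM. The extent of any exchange was not tested. CLDN1 had 2 tested neighbours within 1 Mb, at -0.66 and -0.21, and the one at -0.66 passed.

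**Figure D5:**
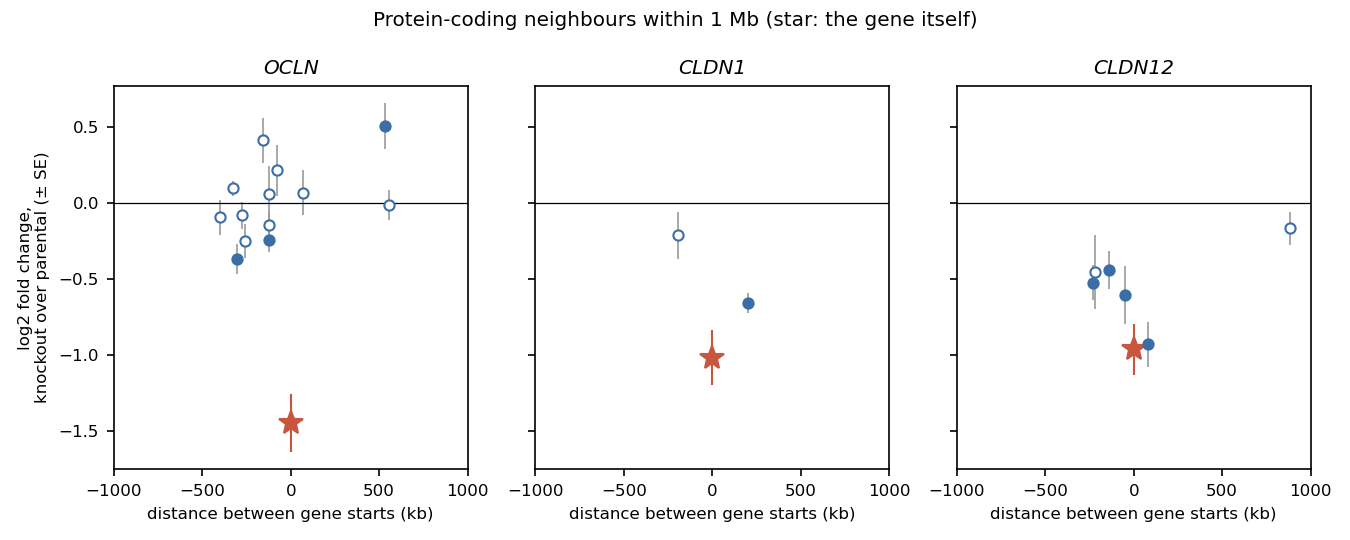
Log2 fold change (vertical axis, bars of 1 standard error) of protein-coding genes within 1 Mb of OCLN, CLDN1 and CLDN12 against the distance between gene starts in kb, with the gene itself as a star at 0 and filled points for those that passed edgeR's test. The neighbours of OCLN lie around 0 (median -0.01) and those of CLDN12 below it (median -0.49). Protein-coding genes of all of chromosome 7, which holds CLDN12, had a median of -0.30.

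The pattern of OCLN over the 10 libraries was shared by many genes. Of 11134 other protein-coding genes with at least 2 CPM, 865 had a Pearson r over 0.95 with OCLN in log2 CPM. The 3 most alike were OXSR1 (r = 0.999), DEK (0.998) and CPED1 (0.998). All 3 had lower means in the knockout, of 129 and 70.9 CPM for OXSR1, 556 and 274.8 CPM for DEK and 104.6 and 29.9 CPM for CPED1. The 10 points of each correlation share the genotype and depth of their library, so r describes both.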

How the data were processed

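Polyadenylated RNA of 5 parental and 5 CCAR1 knockout samples was sequenced. The authors deposited 1 table whose values are the estimated count of every gene in each library, made with kallisto 0.48.0 and hg38 per the submitters' processing notes. Which annotation release and which strand setting they used was not given in the sources used here. Kallisto divides shared reads by likelihood, so overlapping genes can exchange counts.

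Counts were rounded, filtered with filterByExpr (18979 genes kept), scaled by TMM and fitted with genotype as the term in edgeR 4.0.16 (R 4.3.3, quasi-likelihood, robust), with Benjamini-Hochberg adjustment (threshold 0.05). The code was tested on simulated data with 50 genes changed at each fold. The main fit recovered 2% of 1.2-fold, 16.7% of 1.5-fold, 58.3% of 2-fold and 88.6% of 4-fold changes, with 0 false calls. With the replicate block 72.9% of 1.5-fold changes were recovered, with 20 false calls. A gene that did not pass the main fit may therefore still differ by a small fold. Single genes were also tested by exact permutation of log2 CPM (prior count 2). Positions, exon lengths and overlaps are from GENCODE 29 (GRCh38), and 95.1% of tested genes matched. DESeq2 1.42.0 and limma 3.58.1 were alternatives.

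No libraries were merged, since those of a genotype and depth differed by more than counting error (chi-square of 6.75 to 25.7 per gene). Same-numbered samples deviated together (r = 0.586 to 0.898), which by the rule set pairs them. That follows the shallow and deep split, as samples of different depth had r of -0.775 to -0.726 and same-numbered samples within a depth -0.0595 to -0.000997.

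All 9 members were named. Of the other list, up to 3 in each direction with the smallest adjusted p among called genes of at least 2 CPM were named, and claudins of at least 1 CPM. Members, lists and tests were chosen with earlier results of these data known.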

Additional observations from a re-analysis of the deposited data

Results flagged for a closer look

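In a check of each named gene in each genotype (36 groups of 5 libraries), 1 library stood far from the other libraries of its group. TJP3 was at 0.124 CPM in parental replicate 3, with the next highest parental library at 0.0555 CPM, and the gap took up 0.74 of the range of the group, above the critical value of 0.71. The value rests on 7 counts. Chance alone marks about 1 in 20 such groups.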

How the results depend on the processing

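The falls of OCLN, CLDN1 and CLDN12 kept their direction and their side of the threshold in every alternative run. Leaving out each library in turn gave 3 to 4 of the 8 genes tested called, and 17 to 19 of the other tight junction genes. Of all genes 6096 to 6905 were called, with 19001 to 19615 tested. With the replicate block 5 of the 8 genes tested and 11619 of all 18979 genes tested passed. With depth as a term the counts were 6 of 8 genes, 29 of 41 other tight junction genes and 12149 of all 18979 genes tested. The shallow libraries alone gave 5 of the 8 genes tested. The deep libraries alone gave 6 of 9, with 34 of 50 tested in the other list and 15320 of all 26859 genes tested. The direction changed for MARVELD2 in the shallow libraries (-0.026) and for CLDN11 with the replicate block (0.016), in the shallow libraries (0.94) and without parental replicate 4 (0.58, with a range of -0.31 to 0.58 over the libraries left out). F11R passed with depth as a term (-0.21, edgeR adjusted p = 0.0479) and in no other alternative. Depth limits CGN, MARVELD2, F11R, CLDN11 and TJP3, which had under 110 counts in each shallow library.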
